A study of Mus musculus with 16 samples.

Results

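Ribosomes are built in the nucleolus, where RNA polymerase I makes one long precursor RNA that is modified, folded, cut and loaded with ribosomal proteins. Small nucleolar ribonucleoproteins (snoRNPs) of the box C/D and box H/ACA classes modify the precursor, and large sets of assembly factors then build the small and the large subunit. In the colon this pathway is needed most by the growing and dividing cells of the crypt. Here 34 such factors were chosen by gene name, with earlier results of these data known. They were read among the 22396 gene symbols listed for sorted colonic epithelium. There were 4 factors of rRNA transcription, 4 of box C/D snoRNPs and 5 of box H/ACA snoRNPs. A further 8 were of the small subunit, 9 were of the large subunit and 4 were nucleolar proteins with several roles.

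RNA was taken from EpCAM+ cells (EpCAM is a surface protein of epithelial cells) sorted from the distal colonic mucosa of 16 mice, with one polyA library for each mouse. Dextran sulfate sodium (DSS), given to drink, damages the epithelium of the colon, and the labels give 3% DSS for 6 days, with dissection 12 days after the start of treatment. The groups were 4 Tnfr2-f/f control mice given water, 5 Vil1::Cre;Tnfr2-f/f mice given water, 3 Tnfr2-f/f controls given DSS and 4 Vil1::Cre;Tnfr2-f/f mice given DSS. All 16 mice carried the floxed Tnfr2 allele, and the villin promoter of Vil1::Cre is active in intestinal epithelial cells. The paper gives a higher DSS concentration and takes its uninjured mice at the start, so treatment details are those of the labels. No age is given in the labels. The water mice came from cage a (4 males) and cage b (5 females), and the DSS mice, all female, from cage c (2 mice) and cage d (5 mice). In the paper, injured parts of the DSS colons were picked out under a stereomicroscope and parted from unaffected colon before the cells were sorted. Treatment therefore cannot be told apart from cage or from this choice of tissue, and males were only among the water mice.

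Values are TPM, the relative abundance of a transcript corrected for its length and for the size of the library, and they keep no read depth, so no counting error could be given. TPM are used as deposited between mice of one treatment. The tables of the 2 treatments were normalized separately, so levels set across them were divided by 1 factor for each mouse (rescaled TPM), and such differences were described and not tested. The targeted gene *Tnfrsf1b*, which encodes TNFR2, was at 22.2, 13.9 and 13.3 TPM in controls and 27.03, 13.5, 15.2 and 17.7 in the knockout-labelled mice after DSS (exact two-sided permutation p = 0.629) and at 13.5, 15.4, 11.1 and 15.5 TPM in controls and 11.4, 10.1, 9.23, 14.8 and 13.3 in the knockout-labelled mice with water (exact p = 0.198). The genotypes overlapped in both treatments, and a TPM over the whole transcript does not show whether a part of it was removed. The paper reports reduced TNFR2 in EpCAM+ cells of Vil1::Cre;Tnfr2-f/f mice by flow cytometry, and its loss by qPCR. As the TPM did not separate the genotypes, the mice are called knockout-labelled below.

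The summed TPM of 10 epithelial markers, as deposited, was 6339 to 8740 with water and 6134 to 10328 after DSS. By log2(rescaled TPM + 1), 3 of the 10 were higher after DSS in each genotype (51.4% and 50.2% of all genes). Their median differences were -0.23 in controls and -0.31 in knockout-labelled mice. Markers of other cells moved further with the treatment. The summed TPM of 16 leukocyte markers was 978 to 1897 with water and 33.4 to 95.9 after DSS. *Cd8a* was listed at 0 (under 0.01 TPM) in every DSS mouse, but also in 3 of 4 water controls and 4 of 5 knockout-labelled water mice. For 10 plasma cell markers it was 3557 to 155478 with water and 152 to 5136 after DSS, and for 12 stromal markers 319 to 936 and 138 to 594. In bulk RNA of this kind, fewer cells of a type and less RNA per cell cannot be told apart.

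Listed transcripts of the factors lay on 17 chromosomes and were 1042 to 10012 bases long (GENCODE M21, GRCm38). For 11 factors fewer than 5% of the 31-base windows of the listed transcript were absent from the other annotated transcripts of the gene. Reads of these factors had to be divided between isoforms. They were *Mybbp1a* and *Wdr74* (0% each), *Tcof1*, *Nolc1*, *Nop56*, *Nat10*, *Pes1*, *Nop58*, *Noc2l*, *Gnl3* and *Rrp9*, and their levels are uncertain for that reason. *Nolc1*, which encodes a chaperone of snoRNPs, had 0.472% own windows. It was listed at 0 in 11 of the 16 mice, among them all controls of both treatments. It alone missed the mean of 1 TPM set for the comparisons, leaving 33 factors. *Rrp1b* (6.20% own windows) was listed at 0 in 3 mice and *Gar1* (5.56%) in 1 mouse. Windows shared with other genes made up 75.1% of *Fbl*, 45.5% of *Npm1*, 38.2% of *Nop56*, 34.5% of *Pes1*, 15.8% of *Rrs1* and 12.9% of *Wdr12*. The levels of these 6 genes are uncertain on this ground too.

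Of the 34 factors, 28 had a promoter in the RefSeq table (GRCm38.p6), which spans 250 bases before to 50 bases after the gene start. The letters CACGTG, the E-box bound by MYC and related factors and the same on both strands, stood in the promoters of 5 of these 28 genes (17.9%) and of 2187 of 27025 genes in all (8.09%). They are shown for reference beside the levels, with 30 bases of each promoter and the E-box in capitals:

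Nop2 (chr6:125131811-125131840, plus strand): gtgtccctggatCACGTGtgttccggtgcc
Utp20 (chr10:88826765-88826794, minus strand): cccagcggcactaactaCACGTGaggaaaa
Pes1 (chr11:3963965-3963994, plus strand): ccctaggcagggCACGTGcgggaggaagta
Mybbp1a (chr11:72441347-72441376, plus strand): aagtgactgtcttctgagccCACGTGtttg
Wdr43 (chr17:71616220-71616249, plus strand): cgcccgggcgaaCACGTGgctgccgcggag

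The letters CCGGAAG or, on the other strand, CTTCCGG, which are bound by ETS factors, stood in 7 of the 28 promoters (25.0%) and in 2683 of 27025 genes (9.93%). The 7 windows are shown with the ETS letters in capitals, and *Nop2* held both motifs, which do not overlap:

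Gar1 (chr3:129831422-129831451, minus strand): cgcgccgccacaCTTCCGGaaacgtcgcgt
Noc2l (chr4:156236001-156236030, plus strand): ggcattctgggcCCGGAAGtgcggcgcacg
Nop2 (chr6:125131833-125131862, plus strand): ccggtgccgcggCCGGAAGaggcggggcgt
Nhp2 (chr11:51619738-51619767, plus strand): ccacttgaaaacCCGGAAGtgatgtcggag
Heatr1 (chr13:12395347-12395376, plus strand): cgtagtgagaagCCGGAAGttcctatgagg
Wdr74 (chr19:8735800-8735829, plus strand): agtagtggcgcgCCGGAAGtgcaagccacg
Nolc1 (chr19:46075821-46075850, plus strand): acgcgtgtgggaCCGGAAGcaacttctaga

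A match is a description of the letters only, and a missing match says nothing of the factor.

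By rescaled TPM, DSS control 3 was the lowest of the 7 DSS mice in 16 of 33 factors. Over all genes it was lowest in 28.3% and highest in 29.0%. Its median deviation from the mean of the DSS mice was -0.19 for the factors and -0.010 for all genes (log2). DSS control 1 was lowest in 8 factors (16.8% of all genes) and highest in 0 (14.2%), and knockout-labelled mouse 4 was highest in 10 (9.08%). The cage mate of DSS control 3, knockout-labelled mouse 1, was highest in 7 (10.3%). The proliferation markers of DSS control 3 averaged 4.01 on the log2 scale, and those of the other DSS mice 4.24 to 4.69. Its epithelial markers summed to 10328 TPM, the most of the 7 DSS mice.

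**Figure D1:**
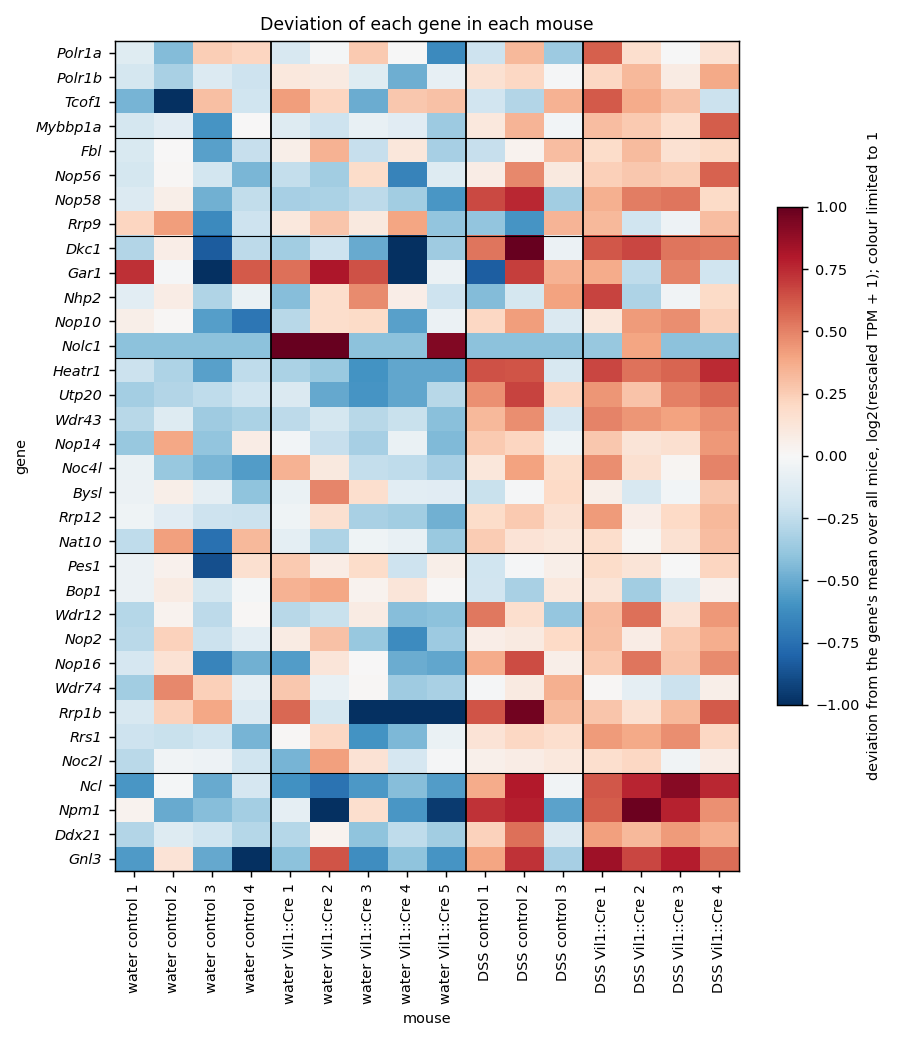
Deviation of each factor in each mouse from its mean over 16 mice, on the log2(rescaled TPM + 1) scale, with colour limited to 1 in either direction; columns are mice and lines part the groups and the roles. The water columns are mostly blue and the DSS columns mostly red, and DSS control 3 is paler or blue in *Npm1*, *Gnl3*, *Nop58*, *Wdr12* and *Heatr1*.

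Ribosome biogenesis factors were higher after DSS than with water in both genotypes, relative to the other genes. In control mice 30 of 33 factors had a higher mean rescaled level after DSS, against 51.4% of 11247 genes, and the median difference was 0.36 on the log2(rescaled TPM + 1) scale, against 0.018 over all genes. In knockout-labelled mice 29 of 33 were higher (50.2% of all genes), with a median of 0.46 against 0.0027. In all mice together 31 of 33 were higher (50.9%). The mean log2 level of the 33 factors was 3.62 ± 0.15 (SD, n = 4) in water controls, 3.64 ± 0.15 (n = 5) in knockout-labelled mice given water, 3.99 ± 0.15 (n = 3) in DSS controls and 4.13 ± 0.055 (n = 4) in knockout-labelled mice given DSS. Water mice ran from 3.43 to 3.83 and DSS mice from 3.87 to 4.19, without overlap. By rank among the genes of a mouse, 32 of 33 factors were higher in the controls and 32 in the knockout-labelled mice, with a median gain of 7.20 and 8.96 percentile points against 1.98 and 1.78 over all genes. Markers of proliferation moved with the factors, and of 16 such genes 14 were higher in the controls (median 0.36) and 15 in the knockout-labelled mice (median 0.44). *Mki67*, a marker of dividing cells, had rescaled TPM of 17.9, 24.1, 17.9 and 29.4 in the water controls, 18.8, 19.3, 18.9, 23.96 and 21.96 in the knockout-labelled mice given water, 42.6, 60.9 and 34.7 in the DSS controls and 46.1, 44.01, 49.3 and 59.9 in the knockout-labelled mice given DSS. Every DSS mouse was above every water mouse. That held for 1 of the 16 markers, *Mki67*, and for 4.52% of all genes. The mean log2 level of the 16 markers overlapped between treatments, with water knockout-labelled mouse 3 at 4.34 and DSS control 3 at 4.01. The part of proliferating cells, of the lower leukocyte and plasma cell RNA and of the stromal RNA in the difference was not tested. The total was also taken without the leukocyte and plasma cell markers, immunoglobulin genes and mitochondrial genes, while stromal markers stayed in it. By that total 33 of 33 factors were higher in both genotypes, against 63.4% and 65.1% of all genes. The medians were 0.57 and 0.76 where all genes had 0.20 and 0.29.

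**Figure D2:**
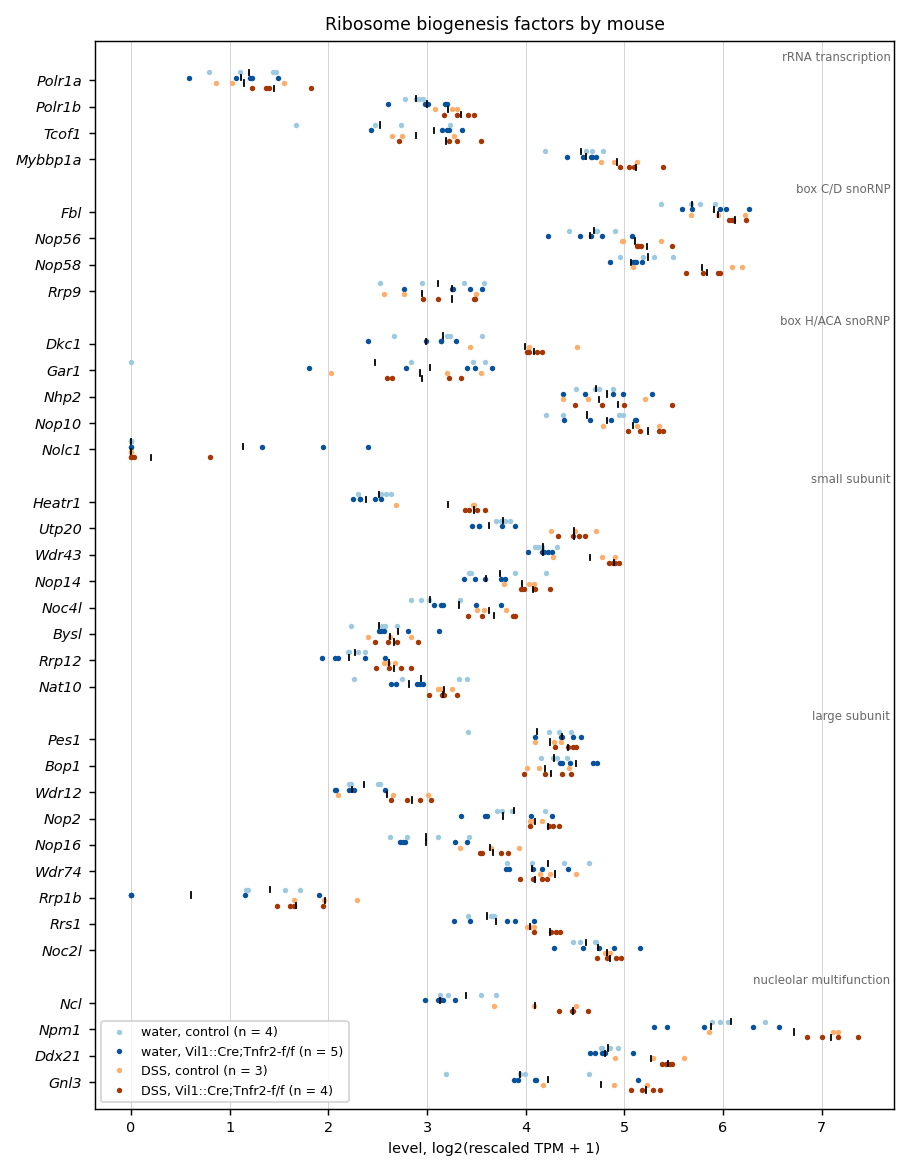
Level of each of the 34 factors, log2(rescaled TPM + 1), in 16 mice; each point is 1 mouse, coloured by group, and the black tick is the group mean. *Npm1* and *Fbl* lie at the right and *Polr1a*, *Rrp1b* and *Nolc1* at the left, and the DSS points of *Heatr1* and *Utp20* lie to the right of every water point.

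Fewer factors stood clear of every water mouse. In controls 8 of 33 factors were higher in each DSS mouse than in each water mouse (10.7% of all genes) and 0 were lower in each (13.9%), so that clear gains made up 24.2% of the factors. The 8 were *Polr1b*, *Nop56*, *Heatr1*, *Utp20*, *Noc4l*, *Rrp12*, *Rrs1* and *Noc2l*. In knockout-labelled mice 14 of 33 were clear gains (17.4%) and 0 clear losses (17.8%). Over all 16 mice 2 of 33 factors, *Heatr1* and *Utp20*, were higher in every DSS mouse, as were 4.52% of all genes, and 0 factors were lower in every DSS mouse (6.96%). The count depended on DSS control 3, and without that mouse 11 of 33 factors lay above every water mouse (12.2% of all genes): *Mybbp1a*, *Nop58*, *Dkc1*, *Heatr1*, *Utp20*, *Wdr43*, *Wdr12*, *Nop16*, *Ncl*, *Npm1* and *Ddx21*. In the controls alone the count without it was 20 of 33 (25.0% of all genes), with 1 of 33 below every water control (26.0%), and 29 of 33 had a higher mean (49.0%), with a median difference of 0.44. Water control 2 and water knockout-labelled mouse 2 also bore on the counts, which were 5 of 33 over all mice without the first (5.09% of all genes) and 4 without the second (5.18%), and 15 of 33 in controls without the first (13.2%).

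Among the factors of rRNA transcription, *Polr1a* encodes the largest subunit of RNA polymerase I. Its rescaled TPM were 1.15, 0.731, 1.77 and 1.71 in the water controls, 1.10, 1.31, 1.80, 1.33 and 0.505 in the knockout-labelled mice given water, 1.03, 1.93 and 0.817 in the DSS controls and 2.54, 1.63, 1.34 and 1.58 in the knockout-labelled mice given DSS. The groups overlapped, and the control difference of -0.055 turned to 0.14 in TPM as deposited and to 0.0083 with upper quartile scaling. *Polr1b* encodes the other large subunit, and its rescaled TPM were 6.58, 5.84, 6.76 and 6.40 in the water controls, 8.20, 8.08, 6.88, 5.10 and 7.06 in the knockout-labelled mice given water, 8.51, 8.89 and 7.49 in the DSS controls and 8.86, 9.71, 8.04 and 10.1 in the knockout-labelled mice given DSS. All DSS controls were above all water controls (difference 0.33), whereas a knockout-labelled DSS mouse at 8.04 lay within the range of its water group. *Mybbp1a*, a nucleolar protein that binds the polymerase, differed by 0.36 in controls and 0.51 in knockout-labelled mice, and *Tcof1*, which encodes treacle, a partner of the polymerase, by 0.36 and 0.13. Without water knockout-labelled mouse 3 the latter was -0.034.

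The box C/D factors build the particles that methylate rRNA. *Fbl* encodes fibrillarin, the methyltransferase, and had rescaled TPM of 53.3, 59.5, 40.4 and 50.2 in the water controls, 61.9, 75.8, 50.5, 64.3 and 47.0 in the knockout-labelled mice given water, 50.3, 60.9 and 73.7 in the DSS controls and 67.3, 74.03, 65.8 and 67.7 in the knockout-labelled mice given DSS. The groups overlapped, with differences of 0.27 in controls and 0.21 in knockout-labelled mice. *Nop56*, a scaffold of the same particle, had rescaled TPM of 25.3, 29.04, 25.2 and 20.7 in the water controls, 24.3, 22.4, 32.8, 17.7 and 26.3 in the knockout-labelled mice given water, 30.4, 40.5 and 30.8 in the DSS controls and 34.05, 34.95, 34.3 and 43.8 in the knockout-labelled mice given DSS. It was clear of its water group in both genotypes (0.42 and 0.58), but water knockout-labelled mouse 3, at 32.8, lay above 2 of the DSS controls. *Nop58*, the other scaffold, differed by 0.56 and 0.77. *Rrp9*, specific to the U3 particle, had rescaled TPM of 9.39, 10.9, 4.76 and 6.73 in the water controls, 8.60, 9.85, 8.56, 10.8 and 5.81 in the knockout-labelled mice given water, 5.79, 4.93 and 10.3 in the DSS controls and 10.2, 6.78, 7.65 and 10.1 in the knockout-labelled mice given DSS. DSS controls 1 and 2 were low and DSS control 3 high, and the control difference of -0.16 turned to 0.15 in TPM as deposited.

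The box H/ACA factors convert uridine to pseudouridine. *Dkc1* (chrX:75095854-75109777, 15 exons in the listed transcript) encodes dyskerin, the enzyme, and had the largest control difference of all 33 factors, 0.83. Its rescaled TPM were 8.22, 10.8, 5.35 and 8.40 in the water controls, 7.85, 8.77, 6.95, 4.28 and 7.83 in the knockout-labelled mice given water, 15.3, 21.98 and 9.84 in the DSS controls and 16.3, 16.9, 15.3 and 15.2 in the knockout-labelled mice given DSS. Only DSS control 3 lay within the water range. *Nop10* differed by 0.46 and 0.41, and *Nhp2* by 0.031 and 0.11. The value of *Nhp2* in controls turned to -0.035 without water control 3 and to -0.20 without DSS control 3, and that in knockout-labelled mice to -0.065 without DSS mouse 1 and to -0.00026 without water mouse 1. *Gar1* differed by 0.45 in controls, where a water control was listed at 0, and by -0.078 in knockout-labelled mice. Without that water control the difference in the controls changed sign.

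The 8 small subunit factors were higher in the controls without exception, with a median of 0.41. *Heatr1* (chr13:12395027-12440289, 45 exons), a large repeat protein of the earliest particle, had rescaled TPM of 5.20, 4.79, 3.94 and 5.01 in the water controls, 4.78, 4.54, 3.74, 4.00 and 4.01 in the knockout-labelled mice given water, 10.2, 10.1 and 5.43 in the DSS controls and 10.4, 9.46, 9.74 and 11.1 in the knockout-labelled mice given DSS. DSS control 3, at 5.43, stood just above the highest water mouse, and the other DSS mice lay between 9.46 and 11.1. *Utp20* (chr10:88746607-88826804, 62 exons), another very large protein of the small subunit processome, had rescaled TPM of 11.99, 12.5, 12.8 and 13.3 in the water controls, 13.9, 10.5, 9.95, 10.5 and 12.6 in the knockout-labelled mice given water, 21.6, 25.2 and 18.2 in the DSS controls and 21.3, 19.02, 22.3 and 23.3 in the knockout-labelled mice given DSS. Every DSS mouse was above every water mouse, and DSS control 3 was again the lowest DSS mouse. The differences in controls and knockout-labelled mice were 0.70 and 1.10 for *Heatr1* and 0.72 and 0.85 for *Utp20*. *Wdr43*, part of the same processome, differed by 0.48 and 0.72, *Nop14* by 0.22 and 0.47, *Noc4l* by 0.60 and 0.36 and *Rrp12* by 0.34 and 0.46. *Nat10*, an RNA acetyltransferase, differed by 0.23 and 0.34, and *Bysl* by 0.11 and -0.040, the latter changing sign without water mouse 2 or DSS mouse 2 of its genotype.

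Of the 9 large subunit factors 8 were higher in each genotype, with medians of 0.22 and 0.45. *Pes1*, *Bop1* and *Wdr12* encode the 3 proteins of the PeBoW complex, which acts in the maturation of large subunit RNA, and each is given in every mouse. Rescaled TPM of *Pes1* were 17.9, 19.2, 9.68 and 20.96 in the water controls, 22.6, 19.7, 21.4, 16.04 and 19.5 in the knockout-labelled mice given water, 16.1, 18.5 and 19.5 in the DSS controls and 21.3, 20.5, 18.7 and 21.8 in the knockout-labelled mice given DSS. Those of *Bop1* were 18.4, 20.3, 16.9 and 18.9 in the water controls, 24.6, 25.3, 19.6, 20.9 and 19.3 in the knockout-labelled mice given water, 16.6, 15.1 and 20.6 in the DSS controls and 21.1, 14.8, 17.4 and 19.7 in the knockout-labelled mice given DSS. Those of *Wdr12* were 3.61, 4.75, 3.68 and 4.67 in the water controls, 3.63, 3.80, 4.94, 3.19 and 3.23 in the knockout-labelled mice given water, 7.07, 5.30 and 3.29 in the DSS controls and 5.94, 7.20, 5.20 and 6.59 in the knockout-labelled mice given DSS. *Pes1* and *Bop1* overlapped between treatments, and *Wdr12* was clear of its water group in knockout-labelled mice. The differences were 0.14 and 0.058 for *Pes1*, and 0.22 and 0.61 for *Wdr12*. Those of *Pes1* turned to -0.096 without water control 3 and to -0.014 without water knockout-labelled mouse 4. *Bop1* was lower by both comparisons, at -0.097 and -0.26, but higher by 0.24 and 0.087 in TPM as deposited. *Nop16* differed by 0.65 and 0.68 and *Rrs1* by 0.44 and 0.55. *Nop2*, a cytosine methyltransferase of rRNA, differed by 0.21 and 0.45, *Noc2l* by 0.22 and 0.12 and *Wdr74* by 0.075 and 0.039. The value of *Wdr74* in controls changed sign without water control 1 or DSS control 3, and that in knockout-labelled mice without water mouse 4 or 5. *Rrp1b* differed by 0.56 and 1.06, with 3 of the knockout-labelled water mice listed at 0.

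The 4 nucleolar proteins with several roles had the highest median of the roles, 0.66 in controls and 1.10 in knockout-labelled mice. *Ncl* (chr1:86344719-86359400, 14 exons), which encodes nucleolin, an RNA-binding protein of the nucleolus, had rescaled TPM of 7.77, 11.97, 8.25 and 10.7 in the water controls, 7.62, 6.88, 7.80, 8.75 and 7.93 in the knockout-labelled mice given water, 15.9, 21.8 and 11.8 in the DSS controls and 19.2, 21.3, 23.7 and 21.2 in the knockout-labelled mice given DSS. *Npm1* (chr11:33152287-33163206), which encodes the histone and ribosome chaperone nucleophosmin, had rescaled TPM of 84.9, 58.3, 61.4 and 65.4 in the water controls, 78.0, 38.3, 93.5, 55.1 and 42.2 in the knockout-labelled mice given water, 138, 143 and 57.03 in the DSS controls and 127, 164, 142 and 114 in the knockout-labelled mice given DSS. In both genes 6 of the 7 DSS mice lay above every water mouse, and DSS control 3 did not. The differences were 0.69 and 1.34 for *Ncl* and 0.63 and 1.21 for *Npm1*. *Gnl3* (chr14:31012433-31019152) encodes nucleostemin, a GTPase of growing cells, and had rescaled TPM of 14.4, 24.01, 14.96 and 8.14 in the water controls, 16.1, 34.1, 13.8, 16.2 and 14.1 in the knockout-labelled mice given water, 28.8, 36.4 and 17.1 in the DSS controls and 39.96, 35.2, 38.3 and 32.5 in the knockout-labelled mice given DSS. Water knockout-labelled mouse 2, at 34.1, and water control 2, at 24.0, lay within the DSS range, and the differences were 0.82 and 1.00. *Ddx21*, an RNA helicase, differed by 0.44 and 0.63.

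**Figure D3:**
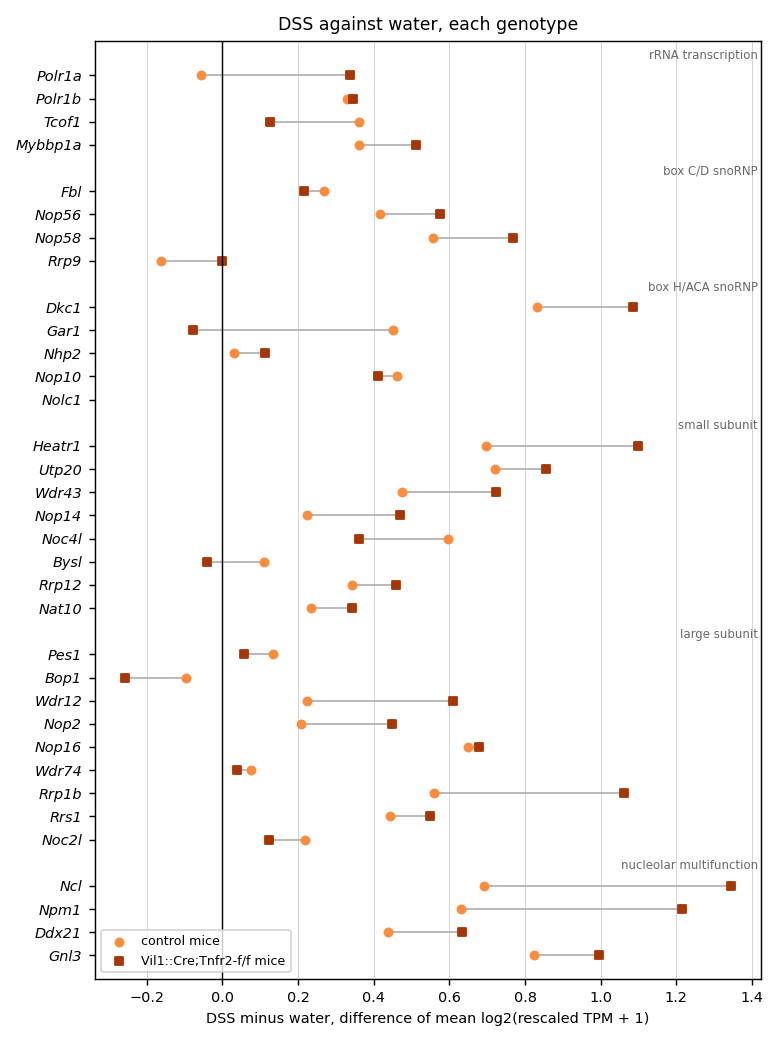
Difference between DSS and water mice, mean log2(rescaled TPM + 1), for each of the 33 factors tested; circles are control mice (3 against 4), squares knockout-labelled mice (4 against 5), and a line joins the 2 values of a gene. Most points lie to the right of 0, *Ncl* and *Npm1* reach furthest in knockout-labelled mice (1.34 and 1.21), and *Bop1* lies to the left in both.

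The 5 factors with an E-box differed in controls by 0.72 (*Utp20*), 0.48 (*Wdr43*), 0.36 (*Mybbp1a*), 0.21 (*Nop2*) and 0.14 (*Pes1*), and the 33 factors together ran from -0.16 (*Rrp9*) to 0.83 (*Dkc1*). *Myc* itself was listed at or near 0 in all mice (at most 0.127 TPM). Of the windows of its listed transcript 0% were its own, so its level could not be read. *Mybbp1a* and *Wdr74* had 0% own windows as well, though their levels were not near 0. Of 7 genes of the MYC network that were tested, 1 was higher after DSS in controls and 0 in knockout-labelled mice, with medians of -0.32 and -0.53. The lowest values were in *Mxd1* in controls (-0.73) and *Mxd3* in knockout-labelled mice (-0.79), and *Mycl* was highest (0.031 and -0.093). These genes differ in role, so the medians do not give a direction of MYC activity, which was not tested.

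Further genes of the pathway were counted from lists of the same roles. Of 12 further genes of the RNA polymerase I machinery 8 were higher in controls (median 0.19) and 8 in knockout-labelled mice (0.15). Among them the initiation factor *Rrn3* differed by 0.12 and 0.32, and *Ubtf*, which opens the rRNA genes, by 0.16 and -0.41. Of 47 further genes of the small subunit processome 39 and 36 were higher (medians 0.31 and 0.43), with *Fcf1* showing the largest value (2.00 and 2.57) and *Nob1* in controls (-0.72) and *Ddx49* in knockout-labelled mice (-0.37) the lowest. *Fcf1* was listed at 0 in 3 of 4 water controls, 3 of 5 knockout-labelled water mice and 1 of 3 DSS controls. Of 48 further genes of large subunit assembly 39 and 39 were higher (0.25 and 0.41), with *Nol8* at 1.63 and 0.98, and the lowest values in *Mrto4* in controls (-1.56) and *Eif6* in knockout-labelled mice (-0.59). *Mrto4* was listed at 0 in all 3 DSS controls and 2 of 4 water controls. Of 10 genes of snoRNP assembly 7 and 7 were higher (0.32 and 0.26), led by *Naf1* at 0.81 and 0.98, with *Pih1d1* lowest (-0.41 and -0.35). Of 13 genes of the RNA exosome, which trims rRNA precursors, 10 and 12 were higher (0.37 and 0.62), led by *Exosc3* (0.75) in controls and *Exosc4* (0.99) in knockout-labelled mice, where it was listed at 0 in 2 of 5 water mice, with *Exosc5* lowest (-0.64 and -0.48).

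Between genotypes, none of the 33 factors passed the test in either treatment. After DSS, limma called 0 of 33 at an adjusted p under 0.05 (0.00918% of 10899 genes) and 0 at an unadjusted p under 0.05 (2.65%). The unadjusted count was 4 without DSS control 2 (5.40% of all genes) and 3 without DSS control 3 (5.64%), again with 0 at an adjusted p under 0.05. The factors leaned one way without passing: 31 of 33 had a higher mean in knockout-labelled mice (52.8% of all genes), and the median log2 fold change was 0.14, against 0.015 over all genes. In 0 factors did all knockout-labelled mice lie above all controls (2.13% of genes), and in 0 did they all lie below (1.55%). Without DSS control 3, the mouse low in many factors, 27 of 33 were higher (56.4% of all genes), with a median of 0.11 against 0.033. Within cage d, with 2 controls and 3 knockout-labelled mice, 27 were higher (56.5%) and the median was 0.087 against 0.034. Cage c held 1 mouse of each genotype, and its control was DSS control 3, so its values rest on that mouse. There 26 were higher (45.6% of all genes) and the median was 0.21 against -0.053. All 16 proliferation markers had a higher mean in knockout-labelled DSS mice as well (median 0.18), with 0 called, and their part in the difference was not tested.

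The largest differences after DSS were in nucleolar proteins. *Gnl3* was at 33.2, 41.3 and 21.2 TPM in controls and 47.6, 42.04, 45.2 and 38.1 in the knockout-labelled mice, so that DSS control 2 (41.3) lay above 1 of the knockout-labelled mice and DSS control 3 was lowest. The log2 fold change was 0.47 ± 0.22 (SE; adjusted p = 1.00, limma), and the exact permutation p was 0.0857. *Ncl* was at 18.4, 24.7 and 14.6 TPM in controls and 22.8, 25.4, 28.0 and 24.8 in the knockout-labelled mice. DSS control 2 lay among the knockout-labelled mice and the other 2 controls below them, for a log2 fold change of 0.40 ± 0.18 (adjusted p = 1.00, limma) and an exact permutation p of 0.0571. *Npm1* was at 159, 162 and 70.7 TPM in controls and 151, 196, 168 and 134 in the knockout-labelled mice, so that the genotypes overlapped apart from DSS control 3 (log2 fold change 0.39 ± 0.30, exact permutation p = 0.400). Without that mouse the log2 fold change of *Npm1* was 0.0027, that of *Ncl* 0.23 and that of *Gnl3* 0.21. Only 2 factors had a lower mean, *Rrp1b* and *Wdr74*. *Rrp1b* was at 3.32, 4.41 and 2.65 TPM in controls and 2.44, 2.14, 2.54 and 3.33 in the knockout-labelled mice (-0.30 ± 0.22, exact permutation p = 0.171), and *Wdr74*, which acts with the exosome helicase in large subunit assembly, at 19.2, 20.4 and 27.01 TPM in controls and 20.2, 18.8, 17.0 and 20.6 in the knockout-labelled mice (-0.19 ± 0.15, exact permutation p = 0.200). Both genes overlapped between genotypes. With 3 against 4 mice the smallest possible exact p is 0.0286.

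The core factors after DSS overlapped too. *Fbl* averaged 72.8 ± 17.1 TPM (SD, n = 3) in controls and 81.4 ± 4.77 (n = 4) in knockout-labelled mice, and *Nop56* 39.7 ± 5.58 and 43.5 ± 5.25. *Dkc1* averaged 18.3 ± 6.38 and 18.9 ± 1.13, and *Polr1b* 9.72 ± 0.404 and 10.9 ± 1.07. The SD of *Fbl* and *Dkc1* was larger in the controls, where DSS control 3 was highest in *Fbl* and lowest in *Dkc1*. *Pes1* averaged 21.2 ± 2.76 and 24.4 ± 1.63, *Bop1* 20.6 ± 4.41 and 21.6 ± 3.20 and *Wdr12* 6.08 ± 2.03 and 7.39 ± 1.04. *Polr1a* was at 1.46 ± 0.637 and 2.10 ± 0.636. Exact permutation p-values of these 8 genes ran from 0.114 (*Pes1*) to 0.771 (*Bop1*).

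**Figure D4:**
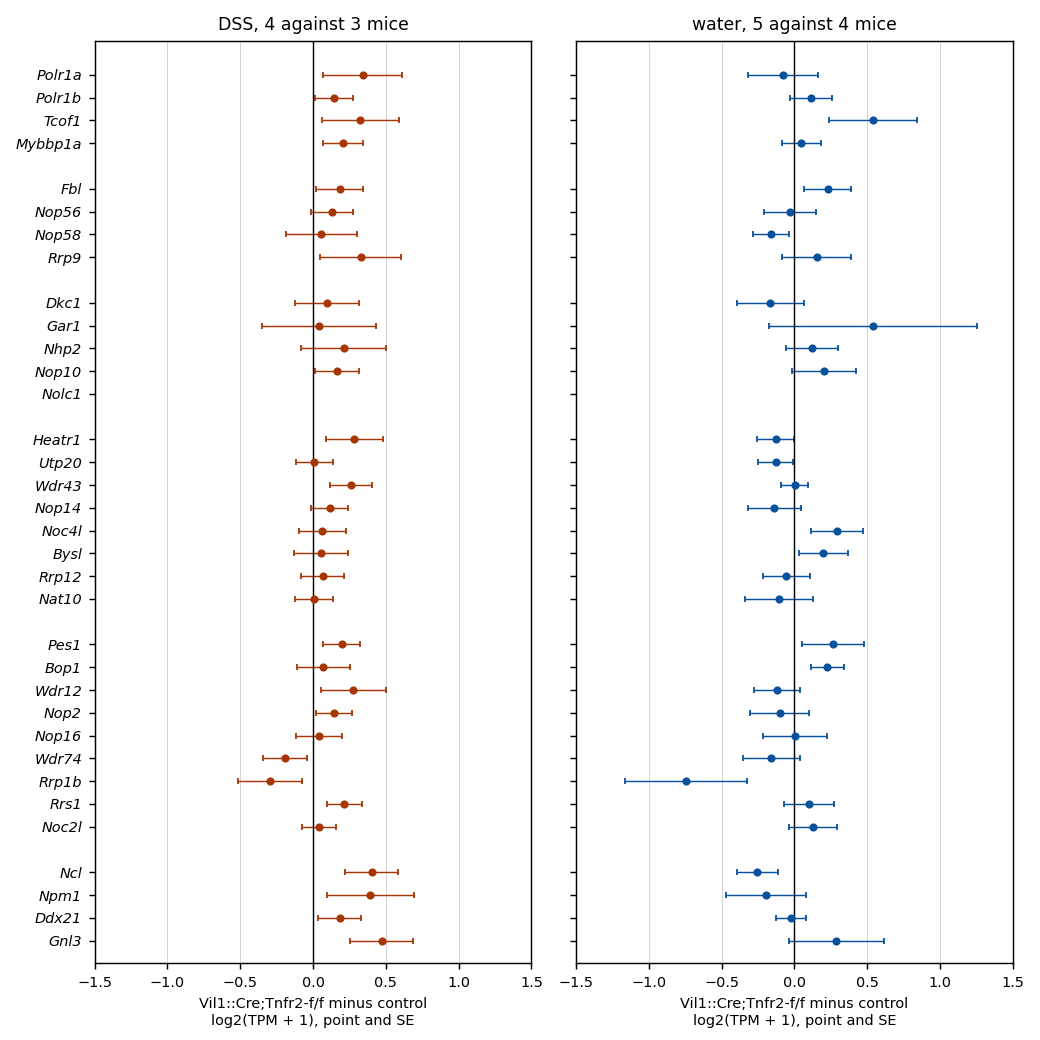
Log2 fold change between knockout-labelled and control mice, on log2(TPM + 1), for the 33 factors tested in each treatment; points are limma estimates and bars their SE. After DSS 31 points lie to the right of 0, and with water 17 do. *Ncl* and *Npm1* are among the factors that change sides.

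With water, limma called 0 of 33 factors (0.00905% of 11046 genes) and 0 had an unadjusted p under 0.05 (5.28%). The unadjusted count was 1 without water control 3 (3.71%) and 1 without knockout-labelled mouse 3 (4.36%). The knockout-labelled mean was higher in 17 of 33 (50.2% of all genes), the median log2 fold change was 0.0025 against 0.0015 over all genes, and in 0 factors did the genotypes part without overlap, upward (0.67% of genes) or downward (0.878%). The cages differed. In cage a, with 2 males of each genotype, 27 of 33 factors were higher in knockout-labelled mice (median 0.20, all genes -0.014), and in cage b, with 2 female controls and 3 knockout-labelled females, 10 were (median -0.078, all genes 0.013). Cage and sex were the same split and cannot be told apart, and the difference between cages was not tested. By rescaled TPM, control 3 of cage a was the lowest of the 9 water mice in 8 factors (15.5% of all genes). Knockout-labelled mouse 2 of that cage was the highest in 10 (13.7%).

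The largest differences with water came with wide spreads within a group. *Tcof1* was at 4.22, 2.01, 7.66 and 5.16 TPM in controls and 8.61, 7.18, 4.14, 7.41 and 7.66 in the knockout-labelled mice, with water control 2 lowest and knockout-labelled mouse 1 highest. The log2 fold change was 0.54 ± 0.30 (SE; adjusted p = 0.865, limma) and the exact permutation p 0.159. *Gar1* was at 10.3, 5.63, 0 and 9.18 TPM in controls and 8.98, 10.6, 9.62, 2.26 and 5.42 in the knockout-labelled mice (0.54 ± 0.71), and without the control listed at 0 the fold change was -0.26. *Noc4l*, at 8.45, 6.53, 6.09 and 5.62 TPM in controls and 11.6, 9.41, 7.45, 7.08 and 6.78 in the knockout-labelled mice, had a log2 fold change of 0.29 ± 0.18 (exact permutation p = 0.167), with control 1 inside the range of the knockout-labelled mice. *Rrp1b*, at 1.16, 1.78, 2.08 and 1.17 TPM in controls and 2.56, 1.12, 0, 0 and 0 in the knockout-labelled mice, had the lowest value, -0.75 ± 0.42 (exact permutation p = 0.222), and knockout-labelled mouse 1 was the highest of all 9.

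*Ncl* and *Npm1* were among the factors higher in knockout-labelled mice after DSS that had lower means in them with water. *Ncl* was at 7.25, 10.96, 7.53 and 9.77 TPM in controls and 7.13, 6.28, 7.33, 7.92 and 7.27 in the knockout-labelled mice, with a log2 fold change of -0.26 ± 0.14 (adjusted p = 0.865, limma; exact permutation p = 0.0794). Its controls 2 and 4 were above every knockout-labelled mouse, and controls 1 and 3 were not. *Npm1* was at 79.2, 53.4, 56.1 and 59.8 TPM in controls and 72.96, 34.96, 87.9, 49.8 and 38.7 in the knockout-labelled mice (-0.20 ± 0.27, exact permutation p = 0.698), with knockout-labelled mice both above and below all controls. The difference in the genotype effect between treatments (DSS minus water), each a value within its own table, was 0.66 ± 0.23 for *Ncl* (SE; adjusted p = 0.949, limma with an interaction term) and 0.59 ± 0.43 for *Npm1* (adjusted p = 0.949). By this test 0 of 33 factors passed (0.00889% of 11247 genes), and 1, *Ncl*, had an unadjusted p under 0.05 (4.18%). Without DSS control 3 the difference was 0.49 for *Ncl* and 0.20 for *Npm1*.

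The other core factors overlapped between genotypes with water as well. *Bop1* averaged 17.1 ± 1.33 TPM (SD, n = 4) in controls and 20.2 ± 2.61 (n = 5) in knockout-labelled mice (exact permutation p = 0.0635), and *Pes1* 15.6 ± 4.60 and 18.3 ± 2.54. *Fbl* averaged 46.7 ± 7.46 and 55.2 ± 10.2, *Nop56* 23.0 ± 3.16 and 22.8 ± 5.44 and *Dkc1* 7.53 ± 2.06 and 6.59 ± 1.61. *Polr1a* was at 1.23 ± 0.447 and 1.12 ± 0.442, *Polr1b* at 5.87 ± 0.379 and 6.52 ± 1.19 and *Wdr12* at 3.84 ± 0.548 and 3.47 ± 0.704. With 4 against 5 mice the smallest possible exact p is 0.00794.

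No gene of the other pathway lists was called by genotype in either treatment. After DSS the RNA polymerase I machinery split evenly, with 6 of 12 higher in knockout-labelled mice, *Taf1d*, listed at 0 in 1 of 3 DSS controls, largest (0.64) and *Taf1b* smallest (-0.85). The small subunit processome had 36 of 47 higher (median 0.12, from *Fcf1* at 1.23, with 1 of 3 DSS controls listed at 0, to *Tbl3* at -0.63), large subunit assembly 37 of 48 (0.13, *Mrto4* at 0.87, listed at 0 in 6 of 7 DSS mice, to *Ddx55* at -0.52), snoRNP assembly 10 of 10 (0.14) and the exosome 11 of 13 (0.14). With water the same lists had 11 of 12 (0.11), 23 of 47 (-0.0039), 22 of 48 (-0.022), 7 of 10 (0.086) and 6 of 13 (-0.016) higher.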

How the data were processed

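RNA of EpCAM+ cells of 16 mice (4, 5, 3 and 4 in the groups water control, water knockout-labelled, DSS control and DSS knockout-labelled, by the sample labels) was read from 2 tables, one for each treatment. The authors made stranded polyA libraries and quantified transcripts with kallisto and sleuth on mm10, as the processing notes name them, and deposited TPM for each transcript and mouse. The transcript release is not given in the sources used here. Only principal isoforms are listed (28988 transcripts after 385 repeated lines were dropped), and the TPM of a mouse sum to 487469 to 861109. The deposited p-values, q-values, mean log counts and log2 ratios are the authors' own comparisons and were not used. TPM keep no depth, and the precision rests on how many mice a group has.

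TPM were summed by gene symbol. For the genotype within a treatment, limma (version 3.58.1, R 4.3.3) was fitted with a variance trend to log2(TPM + 1). Genes entered at an average of 1 TPM or more, p-values were adjusted by Benjamini and Hochberg over all of them, and the threshold was 0.05. The difference in the genotype effect between treatments was fitted in the same way over all 16 mice with an interaction term, a test chosen after the data were seen. A fold change on this scale understates the change of low genes. Single genes were compared by an exact two-sided permutation of mean TPM over 35 splits of the mice after DSS and 126 with water. P-values measure the spread between mice. Tested on simulated data in which 200 genes were altered, the DSS fit found 29% of them at a log2 change of 1 and 77% at 2, and the water fit 48% and 81%. Levels across treatments were divided by median-of-ratios factors over 9936 genes (1.13 to 1.24 after DSS and 0.905 to 0.940 with water) and not tested.

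All 34 factors were accounted for, with the value in every mouse for the largest differences of each comparison and for 10 core factors. The factors and lists were chosen with earlier results of these data known. Transcript windows and gene positions are from GENCODE M21 (GRCm38), and promoters from RefSeq (GRCm38.p6). Alternatives were another pseudocount, other filters and scalings, a replicate block, cage as a covariate, array weights and leaving out each mouse. Python 3.11.15, numpy 2.4.6, pandas 2.3.3, scipy 1.17.1 and matplotlib 3.10.9 were used.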

Additional observations from a re-analysis of the deposited data

Results flagged for a closer look

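In 5 of 101 groups of 4 or 5 mice tested, 1 mouse stood far from the others by Dixon's criterion, and chance alone marks about 1 group in 20. *Nop56* reached 51.3 TPM in DSS knockout-labelled mouse 4, above the other 3 mice of its group. *Nolc1* was at 0.882 TPM in DSS knockout-labelled mouse 2 and near 0 in the other 3. *Rrs1*, at 8.81 TPM, was lowest in water control 4. Water knockout-labelled mouse 2 was highest in *Ddx21*, at 30.2 TPM, and in *Gnl3*, at 31.1 TPM. Groups of 3 mice were not tested.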

How the results depend on the processing

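None of the 33 factors was called by genotype under any alternative, in either treatment. The number of all genes called, 1 in each treatment, was 0 with a pseudocount of 0.1, 0 with a replicate block, and 0 after DSS but 4 with water when all genes above 0 were kept. With water it was 0 at a mean of at least 5 TPM and 2 with quantile normalization. Leaving out a mouse gave 0 to 3 genes after DSS and 1 to 2 with water. Same-numbered mice are different animals, and their deviations correlated at r = -0.20 to -0.025 after DSS and -0.077 to 0.093 with water, so the numbers share no more than a name. With the replicate block 27 factors were higher after DSS (median 0.13) and 20 with water (median 0.048), and 0 were called. An unadjusted p under 0.05 was reached after DSS by 3 factors with array quality weights and 1 with cage as a covariate, and with water by 2 with cage as a covariate and 2 with the replicate block. The test of the difference in the genotype effect between treatments, added after seeing the data, called 0 factors under any alternative and 1 gene in all, which was 0 at a mean of at least 5 TPM, 0 with the replicate block and 1 to 3 without a mouse. Within cage d the DSS median was 0.087. Within cage a with water 27 factors were higher (median 0.20), and within cage b 10 were; these cage values were chosen after seeing the data. Leaving out a mouse gave a median of 0.11 to 0.18 after DSS. The fold change of *Gar1* with water was -0.26 without water control replicate 3, and ran up to 0.91 when another mouse was left out.

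Across treatments 33 of 33 factors were higher in TPM as deposited, where the median difference was 0.70 in controls, 0.79 in knockout-labelled mice and 0.74 in all mice, and the median of all genes moved as well, to 0.32, 0.31 and 0.32. Factors above every water mouse were then 20, 22 and 15, against 30.99%, 31.4% and 18.9% of all genes. With a common total without leukocyte, plasma cell, immunoglobulin and mitochondrial genes they were 14, 23 and 11 (18.2%, 29.9% and 10.2% of all genes). The medians were then 0.57, 0.76 and 0.68. With upper quartile scaling the factors above every water mouse were 13 in controls (16.1%) and 10 in all mice (8.04%). The median in knockout-labelled mice was 0.59 with that scaling. By percentile rank the factors above every water mouse were 15 in controls (19.0%) and 8 in all mice (9.97%). Leaving out a mouse gave 8 to 20 in controls and 2 to 11 in all mice, the highest counts without DSS control replicate 3, where the share of all genes rose from 10.7% to 25.0% and from 4.52% to 12.2%, and 0 to 1 factors below every water mouse in controls. Of the settings not named here, each kept the counts within 1.5 times and the medians within 1 SD between mice. Precision is limited by 3 to 5 mice in a group.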
